A study of Caenorhabditis elegans with 2 samples.

Results

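The microRNA genes of *Caenorhabditis elegans* were examined for binding of CEH-22, an NK-2 homeodomain protein that regulates transcription. Members were all nuclear genes of the Ensembl WBcel235 annotation whose name begins with *mir-*, together with *lin-4*, *let-7* and *lsy-6*, after removal of a species prefix that most of these names carry. This gave 261 genes of the 46890 nuclear genes in the annotation, 260 of them with the biotype miRNA and *mir-1831* with the biotype snRNA. Binding was profiled by ChIP-seq, the sequencing of DNA that is immunoprecipitated with a chromatin protein, in whole late embryos of mixed sex. There was 1 group of 2 biological replicates and no contrast of conditions. Both replicates came from strain OP389, which carries *unc-119(tm4063)* III and the transgene *wgIs389* and stably expresses CEH-22 tagged C-terminally with GFP and FLAG. The antibody is given as ceh-22, chromatin was sheared by sonication, and the control experiment was not analysed here. Whole embryos mix all tissues, so the lists do not show in which cells a region was bound.

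A microRNA is a short RNA cut from a hairpin precursor, which guides an Argonaute protein to messenger RNAs that pair with its seed, bases 2 to 8 of the mature RNA. Genes whose microRNAs share a seed form a family and can act redundantly. In *C. elegans*, *lin-4* and *let-7* time the stages of larval development, the *mir-35* family is needed for embryonic development, and *mir-1* is expressed in muscle. The *mir-51* family is also needed in the embryo, where its loss is known to leave the pharynx, the feeding organ, unattached. CEH-22 itself switches on genes of pharyngeal muscle and is related to vertebrate NKX2-5.

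The strongest CEH-22 regions at microRNA genes lay at the *mir-51* family, so its mature microRNAs are shown first, as DNA letters from the RefSeq annotation of WBcel235 (the assembly also called ce11), 5' to 3', with the seed in capitals.
mir-51: tACCCGTAgctcctatccatgtt
mir-52: cACCCGTAcatatgtttccgtgct
mir-53: cACCCGTAcatttgtttccgtgct
mir-54: tACCCGTAatcttcataatccgag
mir-55: tACCCGTAtaagtttctgctgag
mir-56: tACCCGTAatgtttccgctgag
All 6 shared the seed ACCCGTA and no other member of the 260 with a mature sequence in RefSeq carried it. The 6 sequences were 22 to 24 bases long. Over the first 22 bases, the 7 seed positions were the positions at which all 6 were identical, while base 9 took 4 different letters. The family's microRNA came from arm a of the hairpin at *mir-51*, *mir-52* and *mir-53* and from arm b at *mir-54*, *mir-55* and *mir-56*.

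The DNA around the summits of the 5 strongest peaks at microRNA genes follows, 100 bases to each side of the summit, from the RefSeq genome sequence of WBcel235 on the strand of the nearest microRNA gene. Capitals mark the part inside the annotated hairpin, CTCCGCCC, an element described upstream of nematode microRNA genes, and CAAGTG, the core of the NK-2 site, on either strand.
mir-51 peak, chrIV:11026102-11026302, minus strand: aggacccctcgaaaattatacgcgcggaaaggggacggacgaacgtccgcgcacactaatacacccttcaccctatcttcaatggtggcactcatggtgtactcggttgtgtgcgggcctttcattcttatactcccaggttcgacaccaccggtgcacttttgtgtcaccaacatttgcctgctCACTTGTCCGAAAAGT
mir-52 peak, chrIV:14033938-14034138, plus strand: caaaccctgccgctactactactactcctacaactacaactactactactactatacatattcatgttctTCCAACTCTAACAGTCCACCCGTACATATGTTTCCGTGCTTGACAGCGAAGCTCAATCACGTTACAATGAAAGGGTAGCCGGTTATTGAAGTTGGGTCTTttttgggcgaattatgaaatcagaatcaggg
mir-54 peak, chrX:13145231-13145431, minus strand: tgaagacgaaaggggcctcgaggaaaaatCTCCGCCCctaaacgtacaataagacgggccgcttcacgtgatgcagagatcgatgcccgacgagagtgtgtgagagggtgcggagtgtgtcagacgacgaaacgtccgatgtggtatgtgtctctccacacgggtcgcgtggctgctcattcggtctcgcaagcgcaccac
mir-55b peak, chrX:13144333-13144533, plus strand: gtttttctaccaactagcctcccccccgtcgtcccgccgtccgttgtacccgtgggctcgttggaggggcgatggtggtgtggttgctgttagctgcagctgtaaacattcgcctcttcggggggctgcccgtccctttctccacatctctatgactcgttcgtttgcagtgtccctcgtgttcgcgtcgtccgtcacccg
mir-52 further peak, chrIV:14032971-14033171, plus strand: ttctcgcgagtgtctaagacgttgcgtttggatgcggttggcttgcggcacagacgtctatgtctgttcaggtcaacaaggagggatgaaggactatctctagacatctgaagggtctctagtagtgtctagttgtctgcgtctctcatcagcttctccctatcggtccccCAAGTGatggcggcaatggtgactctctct
In the *mir-51* sequence the last 11 bases belong to the hairpin, and CACTTG, the reverse complement of CAAGTG, overlaps their start. In the *mir-52* sequence all 100 capitals are the hairpin, which the window contains whole. The *mir-54* peak held CTCCGCCC, the further *mir-52* peak held CAAGTG, and the *mir-55b* peak held none of the marked elements.

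Regions were assigned by their summit. A microRNA gene had a region if a summit lay between 2000 bp upstream of the gene's annotated 5' end and its 3' end. The annotated gene is the hairpin in nearly all cases (median length 95 bp), not the primary transcript, whose start is not in the annotation; for *let-7* it spans 1732 bp. Each region has a signal value, the authors' score on a scale not stated, which is used here to rank regions within a list, rank 1 being the strongest. The lists were a thresholded list of 285 peaks, a pooled relaxed list of 19644 regions that holds background as well, and a relaxed list of 30000 regions for each replicate. The thresholded list equalled the 285 strongest pooled regions, with a lowest signal value of 32.2, so having a thresholded peak is here the same as ranking that high in the pooled list. Read depth is unknown.

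Of the 6 *mir-51* family genes, 5 had a thresholded peak, and 3 of these peaks were among the strongest of the whole list. At *mir-51* (IV, 11026013 to 11026112, minus strand) the peak (11026030 to 11026373) ranked 14 in the pooled list with a signal value of 84.5, with its summit 90 bp upstream of the hairpin. The signal value there was 30.8 in replicate 1 (rank 26) and 52.2 in replicate 2 (rank 14). At *mir-52* (IV, 14034008 to 14034107, plus strand) the peak (14033866 to 14034209) ranked 15 with a signal value of 84.2. Its summit lay 30 bp inside the hairpin, within the stretch of the mature microRNA of arm a. Replicate 1 gave 38.0 (rank 11), with another region upstream of the hairpin (rank 27, 30.5), and replicate 2 gave 50.8 (rank 17). Both loci therefore ranked among the strongest 26 regions in each replicate. All 10 peaks in microRNA windows were 344 bp wide with the summit within 1 bp of the midpoint, so a summit marks the centre of an interval rather than a single bound base.

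The 3 family members on chromosome X lie in a row on the minus strand, inside and opposite to the protein-coding gene *F09A5.3*, and shared 1 peak. It spans 13145159 to 13145502, with a signal value of 68.9 at rank 21. Its summit lay 237 bp upstream of *mir-54* (13144996 to 13145094), 407 bp upstream of *mir-55* (13144827 to 13144924) and 544 bp upstream of *mir-56* (13144691 to 13144787). Replicate 1 gave a signal value of 31.6 and rank 23, with its summit 393 bp upstream of *mir-54*. Replicate 2 gave 47.8 and rank 22, 236 bp upstream of *mir-54*. The ranks were thus close between replicates while the summits differed in place, and the pooled list held a further region at 441 bp (rank 785, signal value 23.3).

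Another thresholded peak lay on the other side of the *mir-54* to *mir-56* hairpins (13144261 to 13144604, signal value 46.2, rank 100). It fell in the window of *mir-55b*, a hairpin annotated on the opposite strand to *mir-55* (13144830 to 13144919, plus strand), 397 bp upstream of its 5' end. In replicate 2 a region at that place ranked 52 (36.3). In replicate 1 no summit lay within 200 bp of it, and the strongest region of the *mir-55b* window ranked 163 (18.3), 186 bp upstream. *mir-52* also had a further thresholded peak, 937 bp upstream (14032899 to 14033242, signal value 37.3, rank 177). It ranked 87 in replicate 1 (23.1) and 197 in replicate 2 (23.3).

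*mir-53* was the family member without a thresholded peak. It lies on chromosome IV (11027593 to 11027691, minus strand), upstream of *mir-51* on the same strand. Its strongest pooled region had a signal value of 25.8 and rank 552, with the summit 120 bp upstream of the hairpin. Replicate 1 ranked a region 251 bp upstream at 386 (13.6), and replicate 2 ranked the region at 120 bp at 388 (19.9). The plot of summits around the family's hairpins shows the 4 loci on 1 scale.

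**Figure D1:**
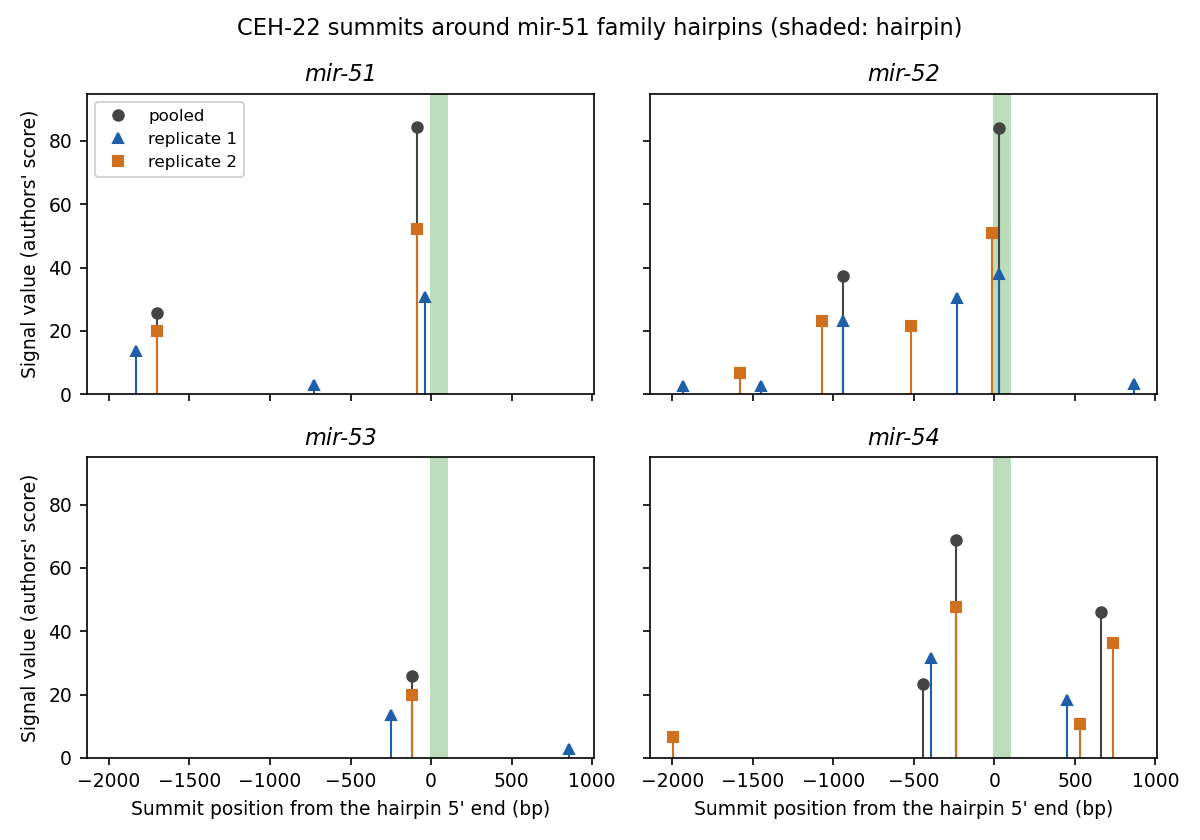
Signal value (the authors' score, vertical axis) of each region with a summit from 2000 bp upstream to 1000 bp downstream of the hairpin 5' end (horizontal axis, bp, upstream negative) at *mir-51*, *mir-52*, *mir-53* and *mir-54*, in the pooled list and both replicate lists; the shaded band is the hairpin that the panel is named for. The strongest summit at *mir-51* and at *mir-52* lies at the hairpin or just upstream in all 3 lists, with pooled values of 84.5 and 84.2, against 25.8 at *mir-53*.

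A further 4 microRNA genes had a thresholded peak, all in the weaker part of that list. *mir-1*, the muscle microRNA (I, 6172662 to 6172757, minus strand), had a peak 310 bp upstream (6172895 to 6173238) that ranked 227 with a signal value of 34.4. Replicate 1 ranked a region at 458 bp at 147 (18.8) and replicate 2 a region at 346 bp at 159 (24.6), so both replicates placed *mir-1* within their own strongest 285. The pooled list held 2 more regions in its window, at 513 bp (rank 387) and 1550 bp upstream (rank 847). The region at 1550 bp lay in a protein-coding promoter window (1000 bp upstream to 200 bp downstream of a 5' end). Within 200 bp of its summit, replicate 1 ranked 5557 and replicate 2 ranked 547. Just beyond the window, 2390 bp upstream of the *mir-1* hairpin, lay the region of rank 3 in the whole list (6175033 to 6175193, signal value 154). It ranked 3 in replicate 1 (73.8) and 6 in replicate 2 (77.6). This region lies at the 5' end of the protein-coding gene *T09B4.3* and was not counted for *mir-1*.

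*mir-2*, which lies within *ppfr-1*, a protein phosphatase 4 regulatory subunit gene on the same strand (I, 9372768 to 9372865), had a peak 253 bp upstream with a signal value of 35.8 and rank 207. The replicates differed here, with the region nearest to the peak at rank 616 in replicate 1 (11.6) and rank 120 in replicate 2 (27.1). *mir-2215* (II, 13333763 to 13333827, minus strand) had 2 peaks farther away, at 1707 bp (35.5, rank 210) and 1471 bp upstream (32.6, rank 272). Replicate 1 gave regions at 1530 bp (rank 487, 12.6) and 1747 bp (rank 1095, 9.48), and replicate 2 a region at 1860 bp (rank 101, 28.4), with no summit within 200 bp of the weaker peak. *mir-251* (X, 11004728 to 11004824, plus strand) had a peak 159 bp upstream (32.5, rank 276). It ranked 166 in replicate 1 (18.3) and 5874 in replicate 2 (11.1), the widest gap between replicates among the genes with a thresholded peak. *mir-251* was the member just inside the limit of 32.2, and *mir-53*, at 25.8, the gene just outside it.

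The next genes by rank had weaker regions, several of them shared within clusters. *mir-229*, *mir-64*, *mir-65* and *mir-66* lie in a row inside *gcn-1*, the gene for an activator of the translation kinase GCN2, and shared a pooled region of rank 606 (25.1) upstream of *mir-229*. For *mir-229*, replicate 1 gave a best rank of 958 and replicate 2 of 280. *mir-261* followed at 659, *mir-8209* at 685, *mir-87* at 900, *mir-58.1* at 945 and *mir-73* at 985. In the *mir-261* window the best rank was 8196 in replicate 1 (1895 bp upstream) and 419 in replicate 2 (287 bp upstream). Within 200 bp of its pooled summit, replicate 1 ranked 14066. For *mir-8209* the best ranks were 3642 (181 bp upstream) and 165 (79 bp inside the gene) in the same order. *mir-73* went the other way, with rank 236 in replicate 1 (129 bp upstream) and 1072 in replicate 2 (497 bp upstream). At *mir-261*, *mir-8209* and *mir-73* the best ranks thus lay far apart but came from different places in the window. At *mir-53* the ranks lay close together, from summits 251 bp upstream in replicate 1 and 120 bp upstream in replicate 2.

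*lin-4*, *let-7*, their relatives and *lsy-6* had no thresholded peak, like most microRNA genes, of which 3.83% had one. A pooled region was present at 44.1% of all microRNA genes and 36.4% of protein-coding genes, so lacking one is common. *lin-4*, the founding microRNA of the larval timing pathway, had no pooled region. Each replicate list held 1 region in its window, 63 bp inside the hairpin at rank 3008 in replicate 1 (6.97) and 358 bp upstream at rank 1500 in replicate 2 (15.2). Its relative *mir-237* had no region in any list. *let-7* had no pooled region, and its replicate regions, inside the annotated span, ranked 19467 and 18034. Of its relatives *mir-48*, *mir-84* and *mir-241*, which act with it in larval timing, *mir-48* and *mir-84* had no region in any list. *mir-241* had a pooled region near the end of that list (rank 19081) and, 450 bp upstream, a region of rank 3475 in replicate 1 (6.65) with none in replicate 2. *lsy-6*, which sets a left and right difference between a pair of taste neurons, had 1 region, in replicate 1, at rank 23715.

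Of the *mir-35* family, 7 of 8 genes had a pooled region and none a thresholded peak, beside 44.1% and 3.83% of all microRNA genes. The 5 genes *mir-37* to *mir-41* shared a region of rank 1081 (21.4) whose summit lay 27 bp inside the *mir-37* hairpin. At that place the region ranked 1959 in replicate 1 (7.97) and 1916 in replicate 2 (14.4). The best region for these 5 genes in replicate 1 was another, at rank 519 (12.3), 632 bp upstream of *mir-37*. *mir-35* and *mir-36*, at the head of the same cluster on chromosome II, had a pooled region of rank 11059 and the same region of rank 519 in replicate 1, with none in replicate 2, and *mir-42*, which lies elsewhere on that chromosome, had none in the pooled list. These 8 genes share the seed CACCGGG. Any relation between a shared seed and the strength of a region was not tested.

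Of 5 genes listed as the *mir-58* family, 3 had a pooled region, beside 44.1% of all microRNA genes. The seed is GAGATCG at *mir-58.1* and GAGATCA at *mir-58.2*, *mir-80*, *mir-81* and *mir-82*. Of the genes with the seed GAGATCA that were not listed, *mir-58c* had no pooled region. The other, *mir-2209.1*, had one of rank 4838, shared with *mir-2208.2* and *mir-2209.3*. Among the listed genes *mir-58.1* had the strongest, at rank 945 with the summit 1449 bp upstream. At that place the region ranked 601 in replicate 1 and 2134 in replicate 2. The best region of its window in replicate 1 was another, at rank 445, 88 bp upstream. *mir-80* followed at 4956 and *mir-81* at 11084, and *mir-82* and *mir-58.2* had none.

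Among 12 single microRNAs listed for their tissues, 7 had a pooled region and *mir-1* alone had a thresholded peak. The shares over all microRNA genes were 44.1% and 3.83%. *mir-228*, a glial microRNA, ranked 1742, with its summit 17 bp inside the hairpin, and *mir-57* ranked 3202. *mir-34* ranked 7068. *mir-71*, which lies with *mir-2* in *ppfr-1* and is known for its part in lifespan, ranked 8200. *mir-124*, a microRNA of sensory neurons that lies in the channel gene *trpa-1*, ranked 13228, and *mir-61*, known from vulval patterning, ranked 15975. *mir-83* and *mir-273* each had a region in 1 replicate list alone, at rank 2763 in replicate 1 and 24538 in replicate 2. *mir-240* and *mir-786*, which lie side by side on chromosome X, had no region in any list.

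**Figure D2:**
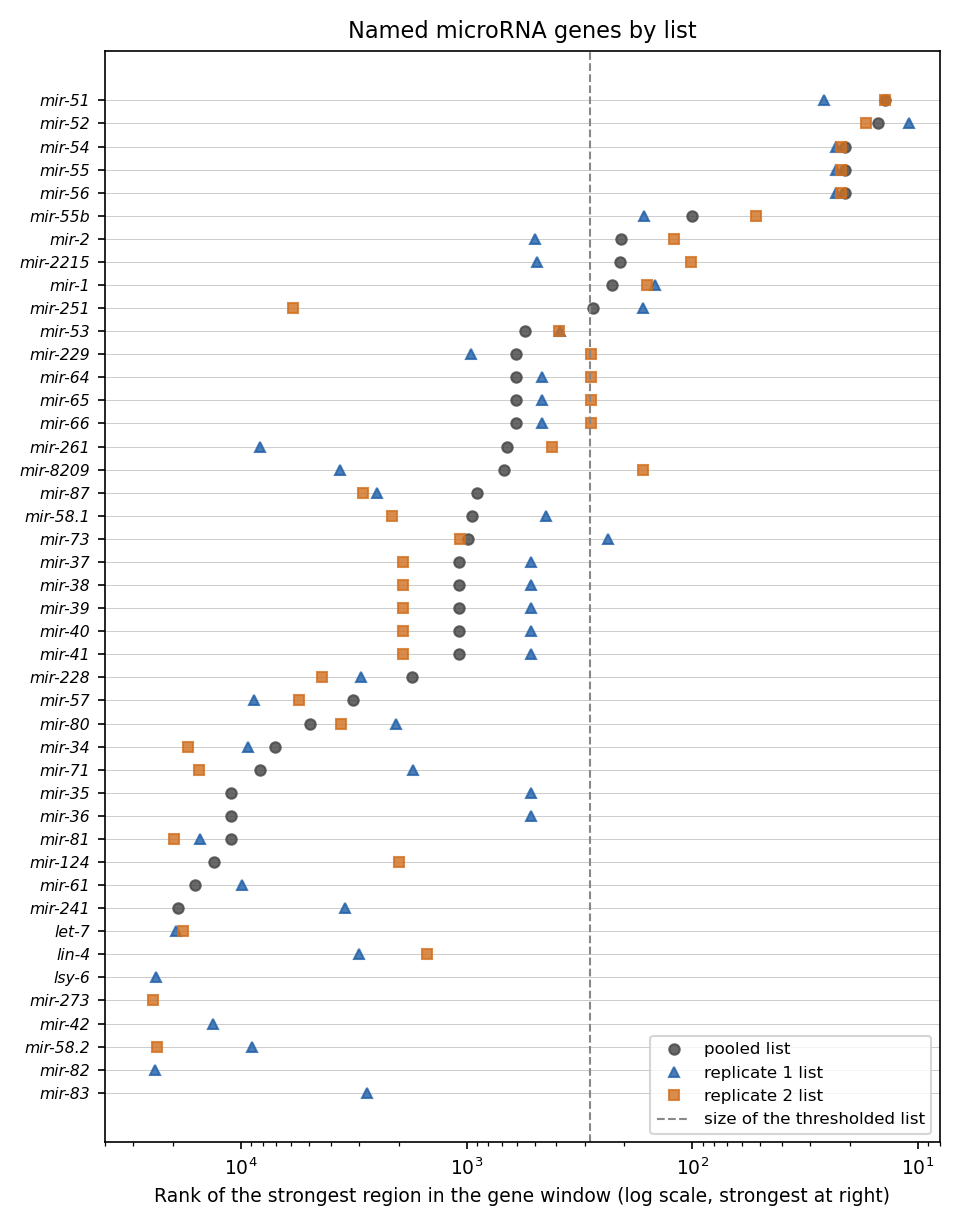
Rank of the strongest region in the window of each named microRNA gene (horizontal axis, log scale, strongest at right) in the pooled list, replicate 1 and replicate 2; the dashed line is at 285, the size of the thresholded list, and genes with no region in any list are left out. The *mir-51*, *mir-52* and *mir-54* to *mir-56* markers lie together beyond rank 30, while *mir-251*, *mir-261* and *mir-8209* have widely separated replicates. At *mir-261* and *mir-8209* the replicate markers stand for regions at different places in the window.

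Over all 261 microRNA genes, 10 had a thresholded peak (3.83%, 95% Wilson interval 2.09 to 6.91), beside 1.02% of 19973 protein-coding genes given windows of the same reach. One of the 1000 strongest pooled regions was present at 21 microRNA genes (8.05%, 5.32 to 12.0), beside 3% of protein-coding genes. A pooled region of any strength was present at 115 (44.1%, 38.2 to 50.1), beside 36.4%. These intervals cover counting error over genes only, no test of the differences was made, and neighbouring hairpins share regions. Where genes with overlapping windows were counted once, 7 of 216 separate windows held a thresholded peak.

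The *mir-51* family and *mir-55b* made up 6 of the 10 genes with a thresholded peak. Without them, 4 of 254 microRNA genes had a thresholded peak (1.57%), a share that lies near the 1.02% of protein-coding genes. Beside all nuclear genes other than piRNA genes, under the same rule as the microRNA genes, the share was 1.6%. That rule takes in the whole gene to its 3' end, so windows of genes longer than a hairpin are longer. With the 1000 strongest pooled regions, 14 of the 254 had one (5.51%), beside 3% of protein-coding genes. These 14 are not separate loci: *mir-229*, *mir-64*, *mir-65* and *mir-66* shared a region, and so did *mir-73* and *mir-74*. These counts without the family were added after the data were seen.

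**Figure D3:**
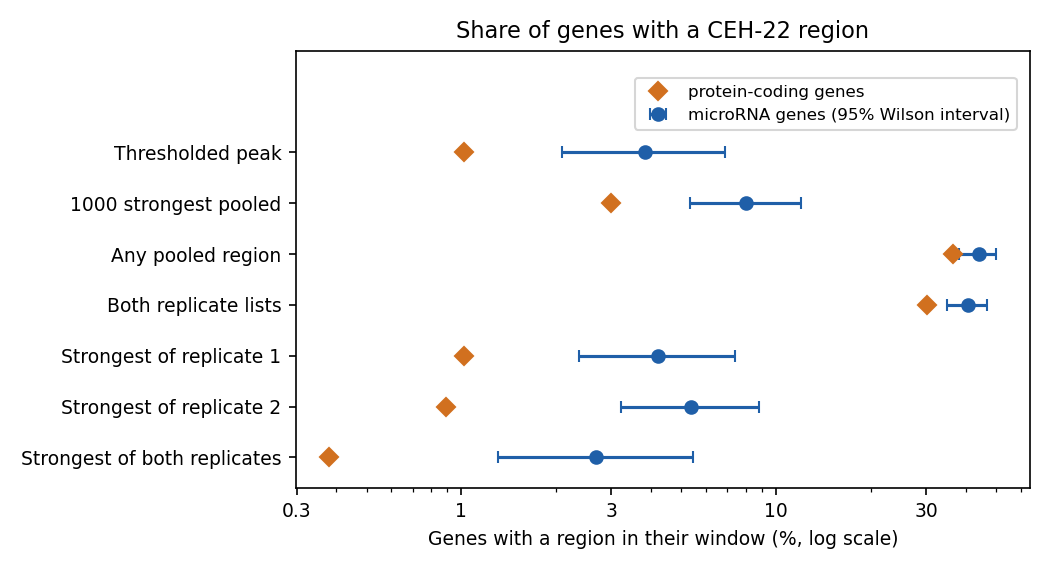
Percent of genes with a region in their window (horizontal axis, log scale) for 261 microRNA genes (circles, with 95% Wilson intervals) and 19973 protein-coding genes (diamonds), under 7 rules; "strongest" means the 285 strongest regions of a replicate. The circles lie to the right of the diamonds under every rule, by most for the thresholded peaks and the strongest regions of the replicates and by least for any pooled region, 44.1% against 36.4%.

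Among genes with a pooled region, the median rank of the strongest was 5335 for 115 microRNA genes and 8467 for 7279 protein-coding genes. A region at rank 2500 or stronger was present at 38 microRNA genes (14.6%), against 6.57% of protein-coding genes. At rank 10000 the shares were 28.4% and 20.9%. The 2 curves of cumulative share thus parted among the strong regions and ran at a similar distance after that.

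**Figure D4:**
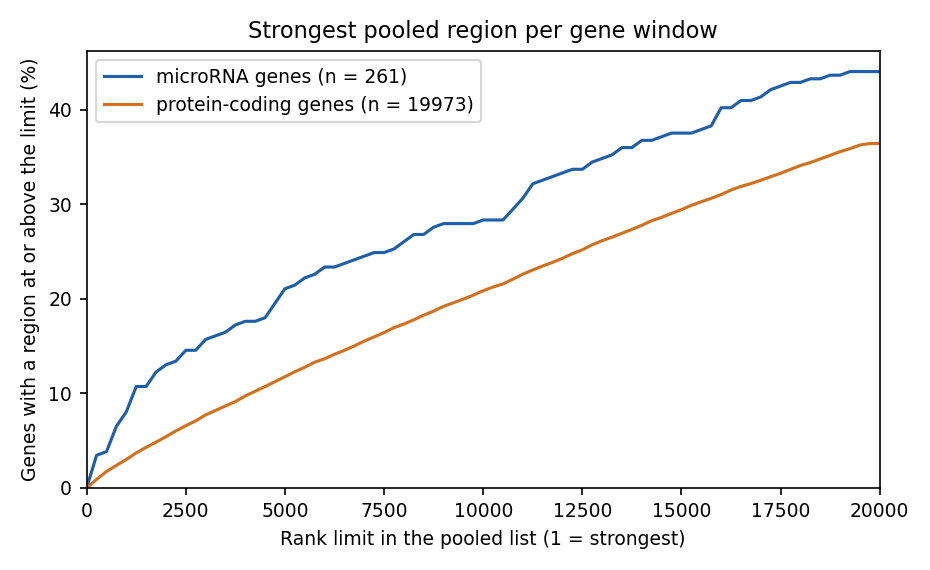
Percent of genes (vertical axis) whose strongest pooled region is at or above a rank limit (horizontal axis, 1 being the strongest) for microRNA and protein-coding genes. The microRNA curve lies above the other throughout, at 14.6% against 6.57% for a limit of 2500 and 28.4% against 20.9% for 10000.

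Each replicate taken alone gave similar counts of microRNA genes but not always the same ones. Among its own 285 strongest regions, replicate 1 had regions at 11 microRNA genes (4.21%), beside 1.02% of protein-coding genes, and replicate 2 at 14 (5.36%), beside 0.896%. Both of these sets held 7 genes (2.68%), beside 0.381% of protein-coding genes, namely *mir-1*, *mir-51*, *mir-52*, *mir-54*, *mir-55*, *mir-56* and *mir-55b*. *mir-251*, *mir-73*, *mir-74* and *mir-8190* were in the replicate 1 set alone; *mir-74* and *mir-8190* are named after their values were seen. *mir-2*, *mir-2215*, *mir-8209* and the *mir-229* to *mir-66* cluster were in the replicate 2 set alone. In the full lists, 106 genes had a region in both replicates (40.6%), beside 30.2% of protein-coding genes, while 53 had one in replicate 1 alone, 44 in replicate 2 alone and 58 in neither. Of the 10 thresholded peaks in microRNA windows, 8 had a summit within 200 bp in both replicate lists (80%), beside 270 of all 277 nuclear thresholded peaks (97.5%). The other two were the *mir-55b* peak and the weaker *mir-2215* peak. Over the 106 genes, Spearman's rho between the best ranks was 0.52, and over 6026 protein-coding genes it was 0.24. These are descriptions across genes, which share regions with their neighbours. The plot of replicate ranks shows the genes with a thresholded peak at the strong end of both axes, except *mir-251*.

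**Figure D5:**
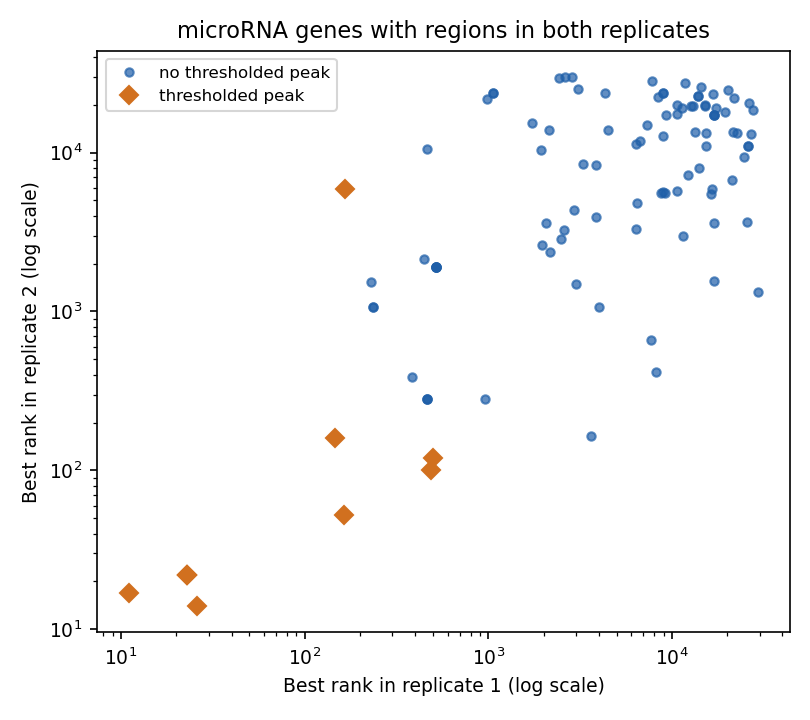
Best rank in replicate 1 (horizontal axis) and replicate 2 (vertical axis, both log scale) of the 106 microRNA genes with a region in both lists; diamonds are the 10 genes with a thresholded peak, of which *mir-54*, *mir-55* and *mir-56* coincide. The 3 strongest diamond positions lie below rank 30 on both axes, and *mir-251* lies apart at 166 and 5874.

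None of the 10 thresholded peaks in microRNA windows had its summit in a protein-coding promoter window (1000 bp upstream to 200 bp downstream of a 5' end), whereas 108 of all 277 nuclear thresholded peaks did (39.0%). None lay within 200 bp of a tRNA, snoRNA, snRNA or rRNA gene, beside 15.9% of all nuclear thresholded peaks. A summit inside a protein-coding gene was found at 3 of them, 2 in *F09A5.3* and 1 in *ppfr-1*, beside 32.9% of all nuclear thresholded peaks. Of the 132 pooled regions in microRNA windows, 23.5% were in a protein-coding promoter window, close to the 24.0% of all 19634 nuclear pooled regions. The windows of 82 microRNA genes held a protein-coding 5' end. None of these 82 had a thresholded peak, beside 10 of the other 179. Those 10 genes fell in 7 separate windows, and the difference was not tested. By place, the share of genes with a pooled region was 56.2% of 32 hairpins inside a gene on the opposite strand, 54.1% of 74 inside a gene on the same strand and 36.8% of 155 outside. The opposite-strand genes with a region include *mir-35* to *mir-41* and *mir-54* to *mir-56*, which share regions within their clusters. By chromosome it ran from 25% of 28 genes on V to 60.6% of 33 on I, and the 73 genes of X, the largest group, held 5 of the 10 genes with a thresholded peak. Of these 5, *mir-54*, *mir-55*, *mir-56* and *mir-55b* have overlapping windows, and *mir-251* lies apart.

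Pooled summits were densest at the hairpins and just upstream. Counting each pooled region once, for its nearest gene, 46 of 131 lay within 500 bp upstream of a hairpin and 12 within the first 95 bp of it. Per 100 bp and 100 genes this was 3.52 and 4.84 regions, against 1.92, 1.53 and 2.15 in the next intervals of 500 bp going outward. For protein-coding genes the same rates were 2.23 within 500 bp upstream and 2.26 over the first 95 bp, then 1.67, 1.56 and 1.39. Counting a region for its nearest gene takes counts from the outer intervals where windows overlap, while every rate was divided by all genes. The 261 microRNA genes fell in 216 separate windows.

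The full NK-2 sites TCAAGTG and TTAAGTG, searched on both strands within 100 bp of the summit, were in none of the 10 thresholded microRNA peaks. They were in 32 of all 277 nuclear thresholded peaks (11.6%) and in 6.06% of all nuclear pooled regions. The core CAAGTG, searched after the data were seen and contained in TCAAGTG, was in 2 of the 10, the *mir-51* peak and the further *mir-52* peak shown above, and in 22.4% of all nuclear thresholded peaks. Among the 132 pooled regions of microRNA windows, 6 held a full site (4.55%). CTCCGCCC was in 2 of the 10 peaks, at *mir-54* and *mir-2*, and in 5.42% of all nuclear thresholded peaks. In the 2000 bp upstream of the gene, CTCCGCCC on either strand was present at 48 of 261 microRNA genes (18.4%) and at 7.18% of protein-coding genes. Either full NK-2 site was present upstream of 37.9% of microRNA genes and 36.9% of protein-coding genes. The DNA within 100 bp of the summit had a mean GC content of 51.8% in the 10 microRNA peaks, beside 48.9% in all nuclear thresholded peaks. In the pooled regions of microRNA windows it was 41.8%, beside 39.9% in all nuclear pooled regions. The part of GC content in these strengths was not tested. Such matches describe letters only.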

How the data were processed

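CEH-22 ChIP-seq regions of 2 biological replicates were used as deposited, on build ce11 (assembly WBcel235). The authors made the relaxed list of a replicate from that replicate's alignments with a control and the pooled list from both together, per the deposited file listing. IDR, which scores how reproducible ranked regions are, gave the thresholded list. The peak caller, the aligner and versions were not given in the sources used here. Each region carries a signal value, a score by the authors' caller; it served only to rank and describe regions. The summit, deposited as an offset from the region start, placed each region. Read depth is unknown, and the 95% intervals cover counting error only.

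Gene models came from Ensembl release 115, and symbols, mature microRNAs and genome sequence from RefSeq, both of WBcel235; positions are 1-based. Removing the prefix was needed because 8 names matched the rule as written; *let-7* was matched by its WormBase ID. *mir-55b* is an Ensembl name with no RefSeq symbol. The comparison set was 19973 nuclear protein-coding genes with windows from 2000 bp upstream to 95 bp downstream of the 5' end, the latter being the median microRNA gene length. Regions of 2 lists matched if their summits lay within 200 bp. Named genes were all with a thresholded peak, the next 10 by pooled rank (*mir-74* tied with *mir-73*), and listed families and single microRNAs. Members and lists were chosen with earlier results of these data known. Whether the replicates came from separate cultures is not stated beyond the label biological replicate. Window assignment was tested on simulated data, where 100 of 100 planted summits were recovered. Alternatives were other reaches, any overlap, stricter lists, single replicates, separate windows and other site searches. Python 3.11.15, pandas 2.3.3, numpy 2.4.6, scipy 1.17.1 and matplotlib 3.10.9 were used.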

Additional observations from a re-analysis of the deposited data

How the results depend on the processing

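Of 36 recomputed values, 30 stayed within the limit of 1.5 times the reported count or the spread between replicates. With a reach of 1000 bp in place of 2000 bp, 67 of 261 microRNA genes had a region in both replicate lists, beside 14.7% of protein-coding genes. With 5000 bp 190 of 261 had one, beside 64.3% of protein-coding genes. With the stronger 142 of the thresholded peaks, 6 of 261 microRNA genes had one, beside 0.486% of protein-coding genes. With summits required to lie within 100 bp, 4 of the 10 peaks were matched in both replicate lists in place of 8, and with any overlap of regions 9 were. With CAAGTG in place of the full NK-2 site, 2 peaks had a match, and without the *mir-51* family and *mir-55b*, 4 genes had a thresholded peak; both were chosen after seeing the data. With 1 replicate left out, counts came from the list of the remaining replicate. Genes among as many strongest regions as thresholded peaks then ranged from 11 to 14. Genes with one of the 1000 strongest regions ranged from 18 to 30. In place of a pooled region, genes with one of that replicate's stronger regions ranged from 105 to 127, and the median rank from 4913 to 5730. The cause of these shifts was not tested, beyond the longer or shorter windows themselves. No paired analysis was possible because there is 1 group. The unknown read depth, the 2 replicates and the missing start sites of primary transcripts limit every count.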

Other observations

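With windows of 5000 bp, 5 more microRNA genes gained a thresholded peak, for a total of 15 of 261. Among protein-coding genes with that reach the share was 1.82%. The peak of *mir-4813* (rank 92, signal value 47.0) lay 2890 bp upstream of the hairpin and 47 bp upstream of *idhg-1*, a subunit gene of mitochondrial isocitrate dehydrogenase. The peak of *mir-236* (rank 108, 45.1) lay 3940 bp upstream, with no protein-coding 5' end nearer than that of *cin-4*, 4075 bp away. The peak of *mir-8209* (rank 146, 40.2) lay 2223 bp upstream and 1004 bp upstream of *jph-1*, the junctophilin gene. The peak of *mir-1830* (rank 200, 35.9) lay 4950 bp upstream and 392 bp upstream of *ntl-2*. The peak of *mir-243* (rank 244, 33.7) lay 4825 bp upstream and 214 bp upstream of *wapl-1*, which encodes a cohesin release factor. Of these 5 summits, 4 lay nearer to a protein-coding 5' end than to the hairpin. The choice to name these genes followed from their values.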
